A study of Arabidopsis thaliana with 8 samples.

Results

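Salicylic acid is a phenolic hormone of plant defence. The 10 genes described here make it, carry its signal or answer to it in Arabidopsis, and they were taken by gene ID from a table of 27655 genes. They are the pathogenesis-related (PR) genes PR1, PR2 and PR5, the synthesis genes ICS1, EDS5 and PBS3, and the signalling genes EDS1, PAD4, SAG101 and NPR1. All 10 had a row in the table, and all 10 passed the filter for testing (at least 1 TPM in at least 2 libraries).

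Messenger RNA was measured in seedlings kept at 22 °C until day 7, with a daily cycle of 16 h light and 8 h dark. There were 4 groups of 2 libraries. Wild type (Col-0) and prp43a, each at control temperature and after 38 °C for 16 h, made up the groups. The labels name the mutant allele prp43a-1, a T-DNA insertion line from a stock centre, and only this 1 insertion allele was measured. The libraries of a group are called biological replicates, while the number of seedlings behind each library and the hour of harvest are not given here. Heat and time of day therefore cannot be told apart.

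Levels are given in TPM (a transcript's share of all transcripts, corrected for gene length). Depth recovered from the TPM steps was 4071036 to 4783628 reads per library. Across genes, 2 libraries at 1 temperature correlated at r = 0.976 to 0.985, whichever the genotype. AT3G62310, a locus of an RNA helicase related to the yeast splicing factor Prp43, had 26.7 and 29.8 TPM in the wild-type controls and 1.68 and 1.44 TPM in the prp43a controls. The leaf markers RBCS1A, CAB1 and LHCB3 were high in every library, with a summed level of 41078 to 43200 TPM at control temperature and 12152 to 16058 TPM after heat. The summed level of the root markers PYK10, SHR and TIP2.3 was 1084 to 1306 TPM at control temperature and 114 to 158 TPM after heat. Nearly all of this sum was PYK10, with means of 1092 and 129 TPM in wild type and 1222 and 116 TPM in prp43a. SHR went from 7.43 to 6.40 TPM in wild type and from 6.96 to 3.80 TPM in prp43a. TIP2.3 had at most 5 reads in any library. Of the seed markers, CRC and OLEO1 were listed at 0 in all 8 libraries. CRA1, the third, was at 0 to 1.18 TPM (0 to 6 reads), with both heated libraries above both controls in each genotype. The flower markers AG and AP3 together reached at most 1.13 TPM. The part of these shifts of leaf, root and seed markers in the results on heat was not tested. In whole seedlings, fewer cells of a type and less RNA per cell cannot be told apart.

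In Arabidopsis most salicylic acid made during defence starts from chorismate in the chloroplast. ICS1 converts it to isochorismate, EDS5 exports isochorismate to the cytosol, and PBS3 joins it to glutamate, a product that then breaks down to salicylic acid. EDS1 pairs with PAD4 or with SAG101 to pass on signals from intracellular immune receptors, and the EDS1 and PAD4 pair raises ICS1 expression. NPR1 binds salicylic acid and works with TGA transcription factors at target genes, of which PR1 is the textbook reporter.

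Stretches upstream of 3 of the genes are shown because PR1 had the widest change of the set and because ICS1 and EDS5, neighbours in the synthesis route, moved in opposite directions with heat. All are given 5′ to 3′ on the strand of the gene, from the TAIR10.1 reference genome. Upstream of PR1, capitals mark TGACG, the core that TGA factors bind, here read on the opposite strand as CGTCA. This stretch lies at chr2:6243076-6243155 on the minus strand, from base -614 to base -535 before the annotated start. In the 250 bases before ICS1 (chr1:28070045-28070294, plus strand) and EDS5 (chr4:18185187-18185436, plus strand), capitals mark TTGAC, the core of the W box that WRKY factors bind.
PR1 upstream stretch: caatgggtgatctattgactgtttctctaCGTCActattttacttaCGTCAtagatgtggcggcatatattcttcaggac
ICS1 promoter: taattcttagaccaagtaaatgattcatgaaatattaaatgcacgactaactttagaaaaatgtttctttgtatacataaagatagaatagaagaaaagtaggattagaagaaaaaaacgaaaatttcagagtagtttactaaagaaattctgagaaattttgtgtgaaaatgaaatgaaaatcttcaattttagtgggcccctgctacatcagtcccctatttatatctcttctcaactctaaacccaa
EDS5 promoter: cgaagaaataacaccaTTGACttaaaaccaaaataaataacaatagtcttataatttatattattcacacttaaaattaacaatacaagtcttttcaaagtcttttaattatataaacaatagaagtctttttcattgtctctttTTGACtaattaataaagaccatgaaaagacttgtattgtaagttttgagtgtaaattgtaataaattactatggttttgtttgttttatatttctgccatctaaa

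Both strands of the 250 bases before each gene were searched for 3 motifs, of which TTGAC and TGACG overlap where TTGACG occurs. TTGAC was present in 5 of the 10 genes, namely PR1, PR5, EDS5, EDS1 and SAG101, against 44.9% of 27444 promoters of the same length. The EDS5 window held 2 matches and the ICS1 window held none. TGACG was in none of the 10 windows, against 18.6% of all promoters. GAANNTTC, a core of heat shock elements, was present only before PR5 among the 10, against 9.55% of all promoters. In windows of 1000 bases, a length added after the data were seen, TTGAC was in 9 of 10 genes against 88.1% of all. TGACG was in 5 of 10 against 54.1%, and GAANNTTC in 4 of 10 against 33.2%. In that window ICS1 also had TTGAC, at -729 and -449, and EDS5 had further matches at -503, -476 and -321. The PR1 stretch shown above was taken from this longer window, around its TGACG matches. These matches are a description of letters in a window and show no binding.

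**Figure D1:**
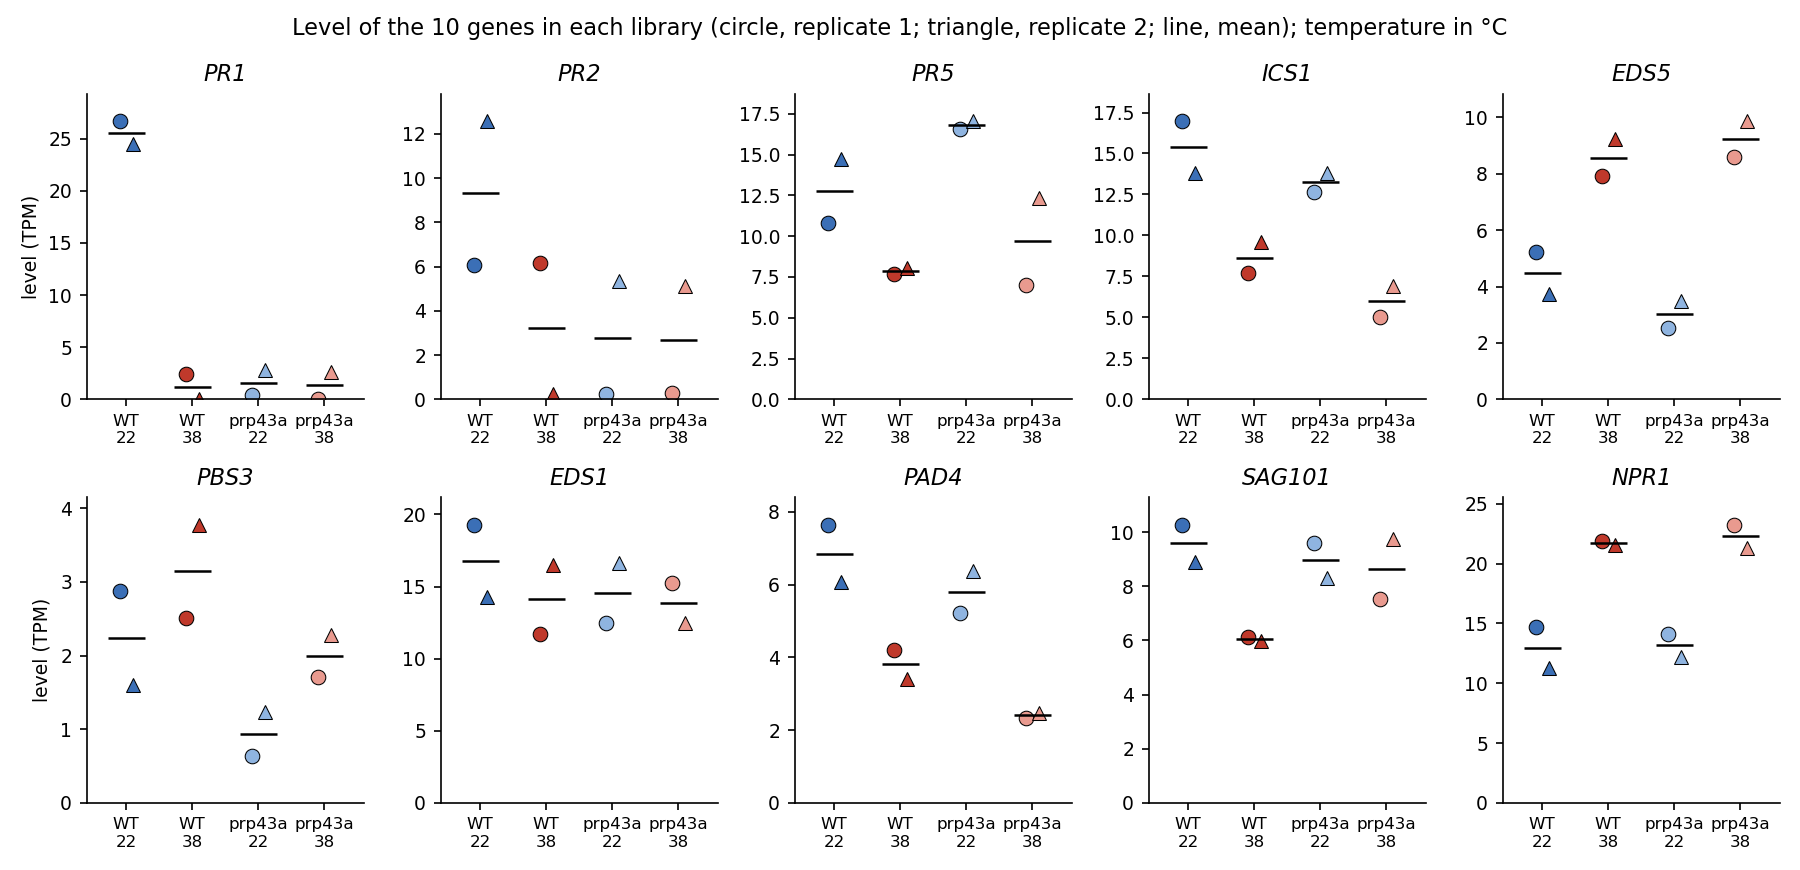
Level in TPM (vertical axis, from 0, a separate scale per gene) of each of the 10 genes in each library of wild type (WT) and prp43a at 22 and 38 °C, with circles for replicate 1, triangles for replicate 2 and a line at the mean. PR1 is high in both wild-type control libraries only, PR2 splits the replicates of all 4 groups, and EDS5 and NPR1 are higher after heat in both genotypes.

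PR1, PR5, ICS1, PAD4 and SAG101 fell with heat in wild type, and EDS5 and NPR1 rose. In prp43a the genes that fell were PR5, ICS1 and PAD4, and EDS5 and NPR1 rose there as well. Between the genotypes none of the 10 genes passed the test, although PR1 stood at 25.6 ± 1.56 TPM in wild-type controls and 1.58 ± 1.71 TPM in prp43a controls (SD, n = 2 each). Each test was limma's moderated test on log2(TPM + 1), with p adjusted over all 19697 tested genes (Benjamini-Hochberg) and a gene called at an adjusted p below 0.05.

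With heat in wild type, 7 of the 10 genes were called, against 70.0% of all tested genes. Of the 10, 5 were called lower, against 27.6% of all tested genes, and 2 were called higher, against 42.4%. The median log2 fold change of the 10 was -0.60, beside 0.25 over all tested genes. The 7 became 3 without wild-type heat replicate 2 and 4 without wild-type control replicate 1. With heat in prp43a, 5 of 10 were called, against 70.1% of all. There 3 were lower, against 27.0%, and 2 higher, against 43.1%, with a median of -0.06 beside 0.28 over all. That median moved when any 1 of the 4 prp43a libraries was left out, from -0.62 without heat replicate 2 to 0.39 without heat replicate 1, and it was also positive without control replicate 2. With median-of-ratios scaling, which brings the all-gene median near 0 by its construction, the all-gene medians were -0.00354 for wild type and -0.00593 for prp43a, and those of the 10 genes -0.86 and -0.35. Of all calls 60.5% were higher in wild type on TPM, and 49.6% with that scaling. In prp43a these shares were 61.5% and 49.2%. Control and heated libraries did not overlap for 5 of 10 genes with heat lower and 2 with heat higher in wild type, against 33.6% and 50.3% of all. In prp43a the counts were 3 lower, against 33.9%, and 3 higher, against 51.9%. Every called change of the 10 genes kept its direction with that scaling.

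**Figure D2:**
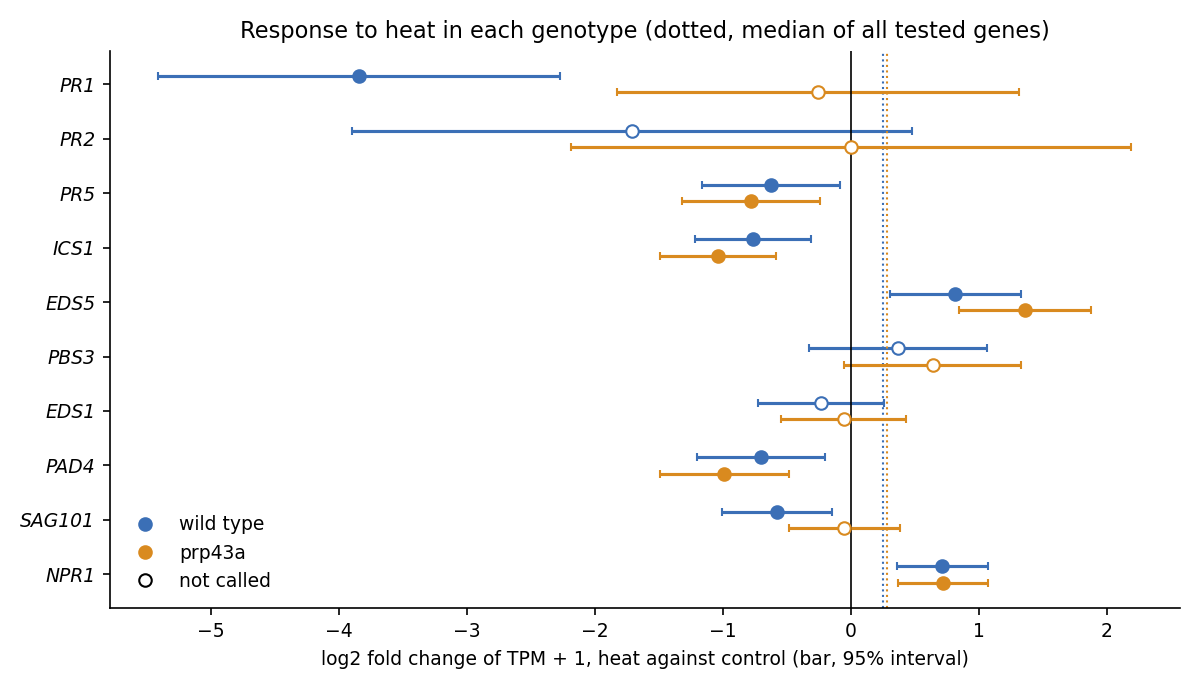
Log2 fold change of TPM + 1 with heat (horizontal axis) for each of the 10 genes in wild type (blue) and prp43a (orange), with bars for the 95% interval of the limma fit, open circles for changes that were not called, and dotted lines at the all-gene medians of 0.25 and 0.28. PR1 in wild type lies at -3.84, and EDS5 and NPR1 are the called genes to the right of 0.

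PR1 (AT2G14610, chromosome 2, 6241640 to 6242541, minus strand, TAIR10.1) encodes a small secreted protein and lies downstream of the TGACG pair printed above. It had 26.7 and 24.5 TPM in the wild-type controls, from 67 and 63 reads. After heat the wild-type libraries held 2.43 and 0 TPM, from 6 and 0 reads. The prp43a controls stood at 0.372 and 2.79 TPM, from 1 and 7 reads, and the heated prp43a libraries at 0 and 2.65 TPM, from 0 and 6 reads. Both wild-type controls were therefore far above the other 6 libraries, which overlapped among themselves. A count of 0 allowed up to 1.22 TPM in the heated wild-type library and 1.35 TPM in the heated prp43a library (3 reads, counting error only). With heat in wild type the log2 fold change of PR1 was -3.84 (SE 0.70, limma adjusted p = 0.00072), and it was lower in 2 of 2 libraries. With heat in prp43a the value was -0.25 (SE 0.70, limma adjusted p = 0.76), from levels that were already near the detection limit at control temperature.

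PR2 (AT3G57260, listed as BGL2, chromosome 3, 21188397 to 21189967, minus strand) encodes a beta-1,3-glucanase that cuts cell wall polymers. It varied widely between replicates. The wild-type controls had 6.08 and 12.6 TPM and the heated wild-type libraries 6.18 and 0.248 TPM. In prp43a the control libraries had 0.227 and 5.35 TPM and the heated libraries 0.274 and 5.12 TPM. Within each of the last 3 of these groups 1 library held 19 to 25 reads and the other 1 read. In heated wild type, prp43a controls and heated prp43a, the library with more PR2 was also the one with more PR1. PR2 was not called with heat in wild type (log2 fold change -1.71, SE 0.98, limma adjusted p = 0.14). It was called there with voom on recovered reads (-2.58, adjusted p = 0.041) and without wild-type heat replicate 1 (-2.97, limma adjusted p = 0.049). Over the 18 alternatives the value ran from -2.97 to -0.45, the latter without wild-type heat replicate 2 (limma adjusted p = 0.74).

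PR5 (AT1G75040, chromosome 1, 28177670 to 28179022, plus strand) encodes a thaumatin-like protein and was the steadiest of the PR genes. The wild-type controls had 10.8 and 14.7 TPM, and both heated wild-type libraries were below them at 7.67 and 8.03 TPM. The prp43a controls were at 16.6 and 17.0 TPM, above every other library, and heated prp43a at 7.03 and 12.4 TPM. PR5 fell with heat by a log2 fold change of -0.62 in wild type (SE 0.24, limma adjusted p = 0.040) and -0.78 in prp43a (SE 0.24, limma adjusted p = 0.015). The wild-type call was lost in 8 of 18 alternatives, including without wild-type control replicate 2 (adjusted p = 0.25), without wild-type heat replicate 1 (0.13) or replicate 2 (0.11), and without prp43a control replicate 1 or replicate 2 (0.063 each). The prp43a call was lost without prp43a control replicate 1 (0.058), prp43a control replicate 2 (0.069) or prp43a heat replicate 1 (-0.41, adjusted p = 0.14). PR5 kept most of its level where PR1 was near its limit of detection, in heated seedlings and in prp43a controls.

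ICS1 (AT1G74710, listed as EDS16, chromosome 1, 28070295 to 28074177, plus strand) encodes isochorismate synthase, the committed step of the route. It had 17.0 and 13.8 TPM in wild-type controls and 7.71 and 9.58 TPM after heat. In prp43a it had 12.6 and 13.8 TPM at control temperature and 5.02 and 6.94 TPM after heat. In both genotypes every heated library was below every control library. ICS1 fell by a log2 fold change of -0.77 in wild type (SE 0.20, limma adjusted p = 0.0065) and -1.04 in prp43a (SE 0.20, limma adjusted p = 0.0011). The wild-type call was lost without wild-type control replicate 1 (-0.63, limma adjusted p = 0.060), and the prp43a call held in 18 of 18 alternatives.

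EDS5 (AT4G39030, chromosome 4, 18185437 to 18189224, plus strand) encodes the transporter that carries the ICS1 product out of the chloroplast, and it moved the opposite way. It had 5.24 and 3.72 TPM in wild-type controls and 7.91 and 9.23 TPM after heat. In prp43a it had 2.52 and 3.49 TPM at control temperature and 8.60 and 9.86 TPM after heat. All 4 heated libraries lay above all 4 controls. EDS5 rose by a log2 fold change of 0.82 in wild type (SE 0.23, limma adjusted p = 0.0094) and 1.36 in prp43a (SE 0.23, limma adjusted p = 0.00043). The wild-type call was lost without wild-type control replicate 2 (0.61, limma adjusted p = 0.077) or wild-type heat replicate 2 (0.72, limma adjusted p = 0.056). Of its 2261 exon bases, 213 overlap AT4G39040 on the opposite strand, which stood at 129 to 150 TPM in the 8 libraries. The library kit keeps strand but the strand setting of the counting is not stated, so part of the EDS5 level is uncertain.

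**Figure D3:**
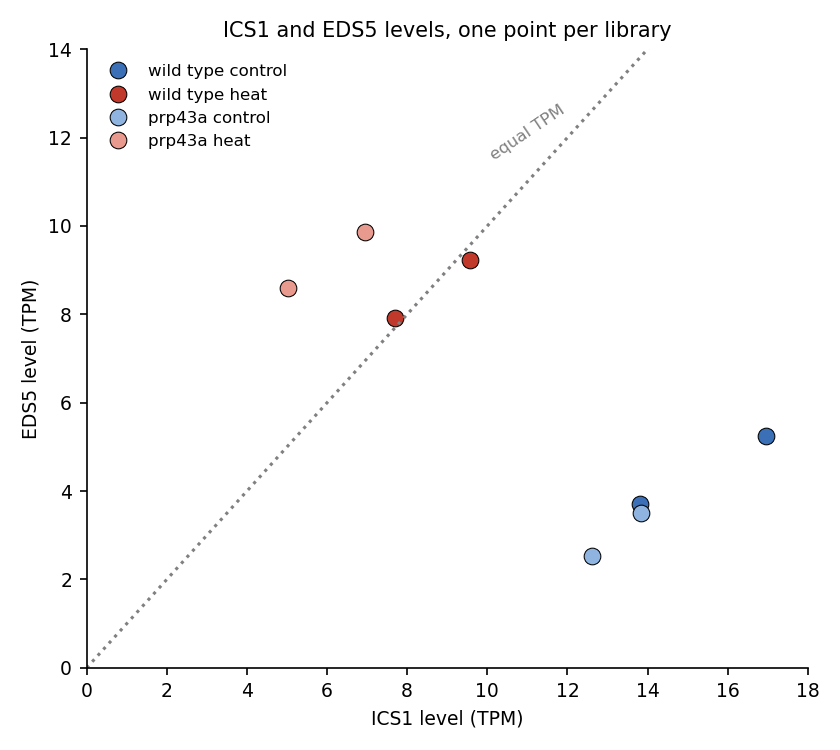
ICS1 level (horizontal axis, TPM) against EDS5 level (vertical axis, TPM), 1 point per library, coloured by group, with a dotted line where both are equal. The 4 control libraries lie far below the line, the heated wild-type libraries near it and the heated prp43a libraries above it.

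As a result of these opposite moves, the ratio of EDS5 to ICS1 in TPM, which is per gene length, went from 0.289 ± 0.0282 in wild-type controls to 0.996 ± 0.0445 after heat (SD, n = 2 each). In prp43a it went from 0.226 ± 0.0372 to 1.57 ± 0.207 (SD, n = 2 each). The 4 control ratios and the 4 heat ratios did not overlap. The ratio was looked at after the values were seen and carries no test.

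PBS3 (AT5G13320, chromosome 5, 4267456 to 4271064, plus strand), the enzyme that joins isochorismate to glutamate, was the lowest of the synthesis genes. It had 2.88 and 1.60 TPM in wild-type controls, 2.51 and 3.78 TPM after heat in wild type, 0.641 and 1.23 TPM in prp43a controls and 1.70 and 2.28 TPM in heated prp43a. The wild-type groups overlapped, and the prp43a groups did not. Its log2 fold change with heat was 0.37 in wild type (SE 0.31, limma adjusted p = 0.32) and 0.64 in prp43a (SE 0.31, limma adjusted p = 0.091), so it was not called in either. The prp43a controls rested on 5 and 9 reads.

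EDS1 (AT3G48090, chromosome 3, 17755329 to 17758147, minus strand), the shared partner of PAD4 and SAG101, stayed within 11.7 to 19.3 TPM over the 8 libraries, and its groups overlapped in every comparison. Its log2 fold change with heat in wild type was -0.24 (SE 0.22, limma adjusted p = 0.35), with a 95% interval from -0.73 to 0.25. With median-of-ratios scaling it was called lower (-0.51, limma adjusted p = 0.0499), and over the 18 alternatives the value ran from -0.51 to -0.01. EDS1B (AT3G48080), a paralog, was at 0.130 to 0.836 TPM. No stretch of 75 bases, the read length, in the exons of EDS1, EDS1B or the other 9 genes had an exact second copy in the genome.

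PAD4 (AT3G52430, chromosome 3, 19431095 to 19434450, plus strand) fell in both genotypes. It had 7.64 and 6.06 TPM in wild-type controls against 4.21 and 3.41 TPM after heat, and 5.21 and 6.37 TPM in prp43a controls against 2.34 and 2.47 TPM after heat. Heated and control libraries did not overlap in either genotype. The log2 fold change was -0.70 in wild type (SE 0.23, limma adjusted p = 0.018) and -0.99 in prp43a (SE 0.23, limma adjusted p = 0.0028). The wild-type call was lost without wild-type control replicate 1 (-0.56, limma adjusted p = 0.11) or wild-type heat replicate 2 (-0.58, limma adjusted p = 0.080).

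SAG101 (AT5G14930, chromosome 5, 4828499 to 4830982, plus strand), the alternative partner of EDS1, fell in wild type. It had 10.3 and 8.91 TPM in wild-type controls against 6.14 and 5.99 TPM after heat, which did not overlap. In prp43a it had 9.60 and 8.31 TPM at control temperature and 7.55 and 9.76 TPM after heat, which overlapped. The log2 fold change was -0.58 in wild type (SE 0.19, limma adjusted p = 0.021) and -0.05 in prp43a (SE 0.19, limma adjusted p = 0.82). The difference of these responses, 0.53 (SE 0.27, limma adjusted p = 0.83), did not pass the test. Without wild-type control replicate 1, wild-type heat replicate 1 or wild-type heat replicate 2 the wild-type call was lost (limma adjusted p = 0.11, 0.053 and 0.062).

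NPR1 (AT1G64280, chromosome 1, 23852748 to 23855658, minus strand), the salicylic acid receptor and coactivator, rose in both genotypes. It had 14.7 and 11.3 TPM in wild-type controls against 21.9 and 21.6 TPM after heat, and 14.1 and 12.2 TPM in prp43a controls against 23.3 and 21.3 TPM after heat. All 4 heated libraries were above all 4 controls. The log2 fold change was 0.71 in wild type (SE 0.16, limma adjusted p = 0.0025) and 0.72 in prp43a (SE 0.16, limma adjusted p = 0.0024), called in 18 of 18 alternatives in each. The 95% interval of the difference between the genotypes' responses ran from -0.50 to 0.51. Of the 2614 exon bases of NPR1, 38 overlap AT1G64270 and 214 overlap AT1G08667 on the opposite strand, genes with no row among those analysed here.

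In wild-type controls PR1 led the 10 genes at 25.6 TPM. EDS1, ICS1, NPR1 and PR5 followed at 16.8, 15.4, 13.0 and 12.8 TPM, and neighbours in this order overlapped in their library values. SAG101, PR2 and PAD4 came next with overlapping values at 9.59, 9.32 and 6.85 TPM, then EDS5 at 4.48 and PBS3 at 2.24 TPM, each apart from its neighbours. After heat in wild type NPR1 led at 21.8 TPM and PR1 was last at 1.21 TPM. In heated prp43a NPR1 again led at 22.3 TPM and PR1 was last at 1.32 TPM, overlapping with PBS3. In prp43a controls PR5 led at 16.8 TPM and PR1 was ninth, with values that overlapped those of PR2 and PBS3.

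PAL1, PAL2, PAL3 and PAL4 fell with heat in both genotypes. They encode phenylalanine ammonia-lyases, which open the phenylpropanoid route that can also lead to salicylic acid. PAL1 went from 145 to 6.49 TPM in wild type (log2 fold change -4.28, SE 0.12, limma adjusted p = 2.7e-09) and from 138 to 7.94 TPM in prp43a (-3.96). PAL2 changed by -3.59 and PAL3 by -2.60 in wild type. PAL4, the lowest of the 4, went from 4.75 and 3.09 TPM in wild-type controls to 0 in both heated libraries. Of 12 tested genes of salicylic acid synthesis and its regulators outside the 10, 6 were called lower and 1 higher in wild type, and 5 lower and 3 higher in prp43a, where 1 was higher without prp43a heat replicate 2. Over all tested genes 27.6% were called lower and 42.4% higher in wild type, and 27.0% and 43.1% in prp43a. The wild-type median of the 12 was -0.86 beside 0.25 over all, and ran from -1.28 with voom to -0.25 with a filter at 5 TPM. CBP60G, a transcription factor that activates ICS1, fell from 6.99 to 0.635 TPM in wild type (log2 fold change -2.29) and from 3.31 to 1.31 TPM in prp43a (-0.91), and was picked out after its values were seen. SARD1, on the same list, moved the other way. It went from 2.15 to 3.43 TPM in wild type and from 1.00 to 2.92 TPM in prp43a, with heated libraries above controls in each genotype.

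Genes that modify salicylic acid also fell for the most part in wild type. Of 5 tested turnover genes 4 were called lower, against 27.6% of all genes, and 1 higher, against 42.4%, in wild type, and 2 were lower without wild-type control replicate 1. In prp43a 2 were lower, against 27.0%, and 1 higher, against 43.1%. UGT76B1, a glucosyltransferase, changed by a log2 fold change of -1.75 in wild type, and MES9, an esterase that frees salicylic acid from its methyl ester, by -1.27. UGT74F1, which makes the glucoside of salicylic acid, rose from 2.36 to 7.80 TPM (1.41). Of the 2 tested genes of the pipecolic acid route, 1 was called lower and 1 higher in prp43a, against 27.0% and 43.1% of all. The higher one, FMO1 (log2 fold change 1.65), had 0 and 1 reads in prp43a controls and 20 and 6 reads after heat. In wild type 1 of the 2 was called lower, against 27.6%, and 0 higher, against 42.4%. The gene called lower in wild type was SARD4, an enzyme of pipecolic acid synthesis (-0.75). That call was lost without wild-type control replicate 1 or wild-type heat replicate 2.

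Partners of EDS1 and NPR1 moved in both directions. Of 6 tested EDS1 partners and helper receptors, 4 were called higher and 1 lower in each genotype, against 42.4% and 27.6% of all genes in wild type and 43.1% and 27.0% in prp43a. NRG1.2 and ADR1-L2, helper immune receptors, rose in wild type by log2 fold changes of 1.29 (limma adjusted p = 0.00027) and 1.17 (4.95e-05), while NDR1, a membrane protein of receptor signalling, fell by 0.89 (0.039). The NDR1 call in wild type was lost when any 1 library other than wild-type heat replicate 2 was left out, and that in prp43a without either wild-type control library or any 1 prp43a library. Of 14 tested salicylic acid receptors and NPR1 partners, 6 were called higher and 3 lower in wild type, near the 42.4% and 27.6% of all genes. In prp43a 6 were higher, near the 43.1% of all, and 0 lower, against 27.0%, while median-of-ratios scaling gave 4 higher and 3 lower. In wild type 3 were higher without wild-type control replicate 2, and 1 was lower without wild-type heat replicate 1. The median of this group in wild type was 0.09 on TPM and -0.11 with median-of-ratios scaling. NIMIN1, an NPR1-binding protein, rose from 0.288 to 3.81 TPM in wild type, TGA5 from 12.4 to 30.6 TPM and TGA6 from 3.89 to 9.81 TPM. The NIMIN1 values rested on 1 and 0 reads in the controls and 8 and 5 reads after heat.

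WRKY factors that respond to salicylic acid split in both directions. Of 6 tested, 2 were called higher and 3 lower in wild type, against 42.4% and 27.6% of all genes, and 2 higher and 2 lower in prp43a, against 43.1% and 27.0%. WRKY46 rose from 3.67 to 27.1 TPM in wild type (log2 fold change 2.56, limma adjusted p = 4.8e-06) and WRKY18 from 14.7 to 75.1 TPM (2.28). WRKY60, which pairs with WRKY18, fell from 16.5 to 3.12 TPM (-2.11). Of the output genes other than the PR genes, those called were lower. Of 7 tested, 5 were called lower, against 27.6% of all genes, and 0 higher, against 42.4%, in wild type, with a median of -2.53 (-4.27 with a pseudocount of 0.1 and -1.02 with 5), and 4 lower, against 27.0%, and 0 higher, against 43.1%, in prp43a, with a median of -1.21 (-2.53 with a pseudocount of 0.1 and -0.37 with 5). Without prp43a control replicate 2 the 4 became 2. In prp43a 2 of the 7, PNP-A and NUDT6, had uncalled positive values of 0.33 and 0.19. ACD6, an ankyrin-repeat membrane protein, fell from 17.4 to 0.567 TPM in wild type (log2 fold change -3.50), WAK1, a wall-associated kinase, from 18.6 to 1.45 TPM (-2.94), and PCC1 from 7.13 to 0.236 TPM.

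At control temperature 0 of the 10 genes were called between prp43a and wild type with limma, against 0.0711% of all tested genes (14 genes, all lower). Voom on recovered reads also called 0 of the 10. At an unadjusted p below 0.05 there were 2 of 10, PR1 and PBS3, and 1760 of 19697 genes in all. The libraries of the genotypes did not overlap for 4 of 10 genes with prp43a lower (PR1, PR2, EDS5 and PBS3), against 17.9% of all tested genes, and for 1 with prp43a higher (PR5), against 21.6%. The median log2 difference of the 10 was -0.20, beside 0.01 over all. Leaving out wild-type control replicate 1 gave -0.06, leaving out replicate 2 of that group gave -0.37, and leaving out prp43a control replicate 2 gave -0.36. Among the 4 control libraries, wild-type replicate 1 was highest for 1 of 3 PR genes, 3 of 3 synthesis genes and 4 of 4 signalling genes.

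PR1 had the widest of these differences, a log2 difference of -3.54 (SE 0.70, 95% interval -5.11 to -1.97, limma adjusted p = 0.18). Its adjusted p ran from 0.0069 to 0.67 over 18 alternatives and passed the threshold in 1, the pseudocount of 5. The log2 difference was -1.81 for PR2 (limma adjusted p = 0.65), -0.73 for PBS3 (0.53), -0.45 for EDS5 (0.62) and 0.39 for PR5 (0.71). ICS1, EDS1, PAD4, SAG101 and NPR1 overlapped between the genotypes, and the 95% interval of NPR1 ran from -0.33 to 0.38.

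Most of the other salicylic acid outputs were also lower in the prp43a controls without passing the test. NUDT6 was level, with means of 1.80 TPM in wild-type controls and 1.76 TPM in prp43a controls. BG3 had overlapping libraries and a higher mean in prp43a controls, 0.761 against 0.510 TPM. The summed level of the 9 listed genes was 40.8 to 79.3 TPM in wild-type controls and 17.4 to 25.9 TPM in prp43a controls. Of the 7 tested, 0 were called, against 0.0711% of all tested genes. An unadjusted limma p below 0.05 was found for 6 of the 7, against 1760 of 19697 genes. The median log2 difference of the 7 was -1.22, beside 0.01 over all. Among the 9 listed, 7 did not overlap between the genotypes, all lower in prp43a, against 17.9% of all tested genes. Wild-type control replicate 1 stood apart beside these values: it was the highest of the 4 control libraries for 8 of the 9. PAD3 and CYP71A13, enzymes of camalexin synthesis, had 21.0 and 26.2 TPM in that library against 1.18 and 2.11 TPM in replicate 2. Without replicate 1 the median was -0.91, and without replicate 2 it was -1.51. Wild-type control replicate 2 was above both prp43a libraries for 7 of the 9 outputs, and for PR1 by itself with 24.5 TPM. The following defence lists also had negative medians between the control groups, beside 0.01 over all tested genes. Each had 0 called, against 0.0711% of all tested genes, and 1 positive value. Of 7 jasmonate and ethylene outputs 5 did not overlap, all lower in prp43a, against 17.9% of all tested genes, with a median of -0.64. For the 8 listed WRKY factors that count was 5, with a median of -0.57 over the 6 tested. WRKY62, among those 5, was below the filter and had at most 2 reads in a control library. For the 6 pattern-triggered or camalexin genes it was 3, with a median of -0.65. Wild-type control replicate 1 was the highest control library for most genes of these lists too. It was highest for 5 of the 7 jasmonate and ethylene outputs, 7 of the 8 WRKY factors and 5 of the 6 pattern-triggered or camalexin genes.

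**Figure D4:**
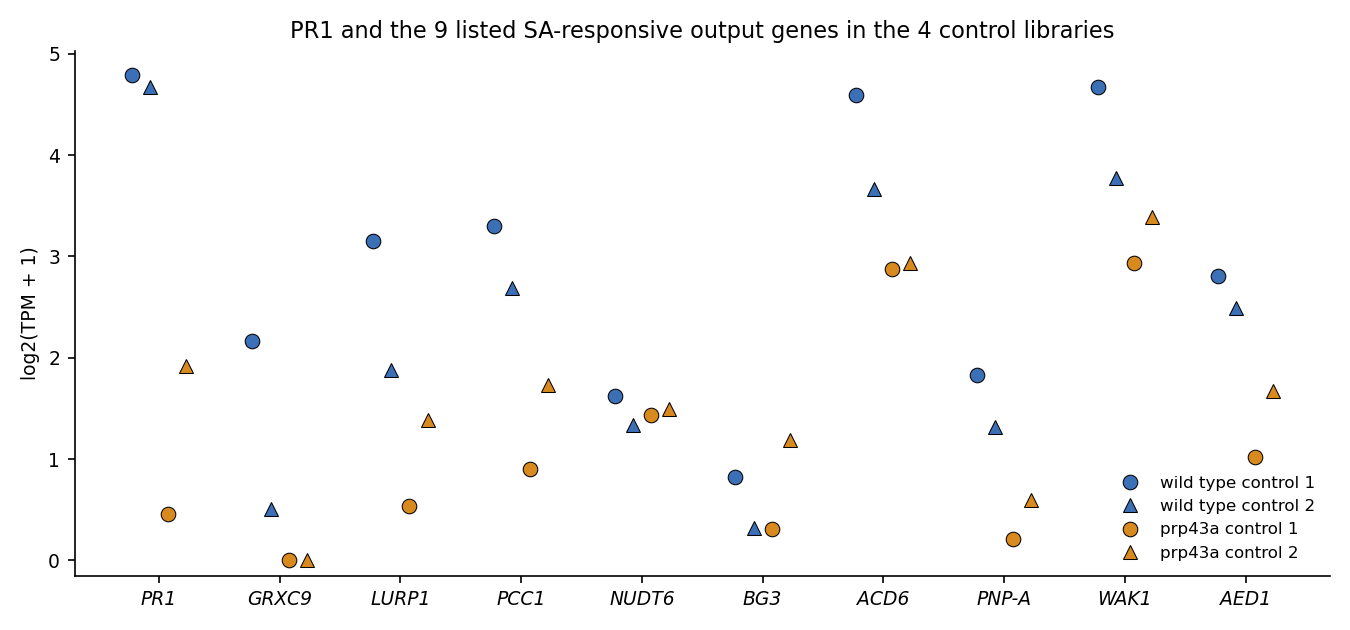
Level as log2(TPM + 1) (vertical axis) of PR1 and the 9 other listed salicylic acid (SA) output genes in the 4 control libraries, with wild type in blue, prp43a in orange, circles for replicate 1 and triangles for replicate 2. Wild-type replicate 1 is highest for 8 of the 9 listed genes and for PR1, and both wild-type libraries are above both prp43a libraries for PR1 and 7 of the 9.

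After heat 0 of the 10 genes were called between the genotypes with limma, against 0.00508% of all tested genes (1 gene), and voom called 0 as well. At an unadjusted p below 0.05 there were 2 of 10, ICS1 and SAG101, and 899 of 19697 genes in all. The libraries did not overlap for 3 of 10 genes with prp43a lower (ICS1, PBS3 and PAD4), against 11.0% of all, and for 1 with prp43a higher (SAG101), against 19.4%. The log2 difference was -0.47 for ICS1 (95% interval -0.92 to -0.02), -0.49 for PAD4, -0.46 for PBS3 and 0.44 for SAG101 (95% interval 0.01 to 0.87), each with a limma adjusted p of 1. PR1, at or under 6 reads in all 4 heated libraries, could not be told apart between the genotypes at this depth.

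The heat response itself was compared between the genotypes as an interaction. With limma 0 of the 10 genes were called, against 0.0102% of all tested genes (2 genes), and voom called 0 as well. At an unadjusted p below 0.05 there was 1 of 10, PR1, and 1237 of 19697 genes in all. The difference for PR1, prp43a minus wild type, was 3.59 (SE 1.00, limma adjusted p = 0.64, with 0.15 to 1.0 over 17 alternatives). That for EDS5 was 0.54 (SE 0.33, 95% interval -0.18 to 1.27, adjusted p = 0.86).

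Correlation with PR1 over the 8 libraries was ranked among 14889 tested genes of at least 5 TPM on average. The highest were AT1G71980 (Pearson r = 0.95), AT1G12400 (r = 0.95) and LEA7 (r = 0.94). Pearson r does not measure the size of a change. AT1G71980 had means of 33.9 TPM in wild-type controls, 27.2 TPM after heat, 28.9 TPM in prp43a controls and 26.6 TPM in heated prp43a, a far smaller change than that of PR1. LEA7, a late embryogenesis abundant protein, had means of 28.8 TPM in wild-type controls, 0.405 TPM after heat, 1.17 TPM in prp43a controls and 0.440 TPM in heated prp43a. Those most correlated with ICS1 were CYP706A6, a cytochrome P450 (r = 0.99), AT3G50900 (r = 0.98) and AT2G47010 (r = 0.98). CYP706A6 had means of 43.3 and 38.4 TPM in the wild-type and prp43a controls and 32.1 and 26.9 TPM after heat. AT3G50900 had means of 9.66 and 8.60 TPM in the wild-type and prp43a controls and 3.91 and 2.92 TPM after heat. These correlations rest on 8 libraries that share 2 temperatures and 2 genotypes, and they are a description only.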

How the data were processed

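The authors deposited 1 table of TPM per gene and library, per the file headers. Per the submitters' processing notes the genome build was TAIR10. Per the labels' protocols a stranded mRNA kit was used and read as 75 bp pairs. Aligner, counter and strand setting: not given in the sources used here. TPM are shares, so a large rise of some genes lowers the rest. With TAIR10.1 exon lengths (27445 of 27655 rows had a gene model), 99.2% of 126781 values of up to 200 reads came out as whole reads within 0.05. These recovered reads gave depth and counting limits, which cover counting error only. Whether a read is 1 mate or a pair is unknown. Coordinates and sequences are from TAIR10.1, because the table carries none.

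Genes of at least 1 TPM in at least 2 of 8 libraries (19697) were fitted on log2(TPM + 1), which understates the change of low genes, with limma 3.58.1 in R 4.3.3. All 8 libraries entered 1 fit with a mean per group, a mean-variance trend and 4 residual degrees of freedom. P-values were adjusted by Benjamini-Hochberg over all tested genes and called below 0.05. With 2 libraries per group an exact permutation test cannot reach that threshold. The fit was tried on simulated data with the same spread setting for every gene. That setting was not matched to genes that vary as widely between replicates as PR1 and PR2, so it does not cover them. The members and lists were chosen with earlier results of these data known. Outside the 10 genes, the rule was to name up to 3 called genes per list by size of change with heat in wild type. The 3 genes most correlated with PR1 and with ICS1 were named as well. Other genes were named outside this rule, among them PAL4, CBP60G, NUDT6, PAD3 and WRKY33. There were 18 alternatives, which covered pseudocounts of 0.1 and 5, filters, scaling, the trend, fits of the compared groups, a replicate block, voom and each library left out. The groups and replicate numbers came from the sample titles.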

Additional observations from a re-analysis of the deposited data

Results flagged for a closer look

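For PNP-A, a small secreted peptide of the salicylic acid output list, every heated library was below every control in wild type and above every control in prp43a. It had 2.56 and 1.497 TPM in wild-type controls, 1.04 and 0.522 TPM after heat, 0.159 and 0.511 TPM in prp43a controls and 0.770 and 0.567 TPM in heated prp43a, from 1 to 15 reads. The difference of the responses, prp43a minus wild type, was 1.09 on the log2 scale (SE 0.45, limma adjusted p = 0.77) and did not pass the test. EDS1B, a paralog of EDS1, showed the same opposite order. It had 0.836 and 0.408 TPM in wild-type controls, 0.284 and 0.142 TPM after heat, 0.130 and 0.279 TPM in prp43a controls and 0.315 and 0.618 TPM in heated prp43a, from 1 to 6 reads. The difference of its responses was 0.69 on the log2(TPM + 1) scale. EDS1B was below the filter, and the difference was not tested.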

How the results depend on the processing

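Over the 18 alternatives (17 for the difference of responses), all 216 recomputations of a called change of the 10 genes kept its sign. Of 885 recomputed values 42 turned sign, none of them called in either fit, 19 calls were lost and 4 were gained. The number of the 10 genes called with heat in wild type, 7, ran from 3 to 7 when single libraries were left out: it was 3 without wild-type heat replicate 2 and 4 without wild-type control replicate 1. In prp43a, 5 ran from 4 to 5. Between genotypes at control temperature a pseudocount of 5 called 1, PR1. PR1 with heat in prp43a, uncalled, ran from -1.19 to 0.68 and turned positive without prp43a control replicate 2 (0.48) and without prp43a heat replicate 1 (0.68). SAG101 with heat in prp43a, uncalled, ran from -0.34 with median-of-ratios scaling to 0.11 (-0.22 to 0.11 when single libraries were left out) and turned positive without prp43a control replicate 1 (0.04) and without prp43a heat replicate 1 (0.11). The cause of these shifts was not tested. PBS3 had 1 alternative fewer, since a filter at 5 TPM removed it. PR1 with heat in wild type ran from -5.67 to -2.33 and was called in 18 of 18. Same-numbered libraries deviated together at r = -0.028 to 0.028, so no shared shift by replicate number was seen. That check cannot tell whether same-numbered libraries were grown or prepared together. With the replicate block the calls among the 10 genes were 7, 5, 0, 0 and 0 in the 5 comparisons, as without it. Levels under about 1 TPM rested on few reads and were measured coarsely.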

Other observations

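Of the defence genes outside the salicylic acid route that were listed as pattern-triggered or camalexin genes, those called were lower with heat. Of 6 tested, 4 were called lower, against 27.6% of all genes, and 0 higher, against 42.4%, in wild type. The median log2 fold change was -2.47, and it was -1.10 without wild-type control replicate 1 and -3.56 without wild-type control replicate 2. In prp43a 2 were lower, against 27.0%, and 0 higher, against 43.1%, with a median of -0.90 that ran from -3.23 with a filter at 5 TPM, which left 3 genes, to -0.37 with a pseudocount of 5. PAD3 and WRKY33 had uncalled positive values there of 0.91 and 0.14. Without wild-type control replicate 1 or replicate 2, 4 were lower in prp43a. CYP81F2, an enzyme of indole glucosinolate metabolism, fell from 25.8 to 0.828 TPM in wild type (log2 fold change -3.83, limma adjusted p = 2.4e-06) and from 17.2 to 0.907 TPM in prp43a (-3.23). FRK1, a receptor-like kinase used as a reporter of pattern-triggered immunity, fell from 16.3 to 0.677 TPM (-3.31) and from 11.4 to 0.222 TPM (-3.33). CYP71A13 was listed at 0 in both heated wild-type libraries. The senescence genes SEN1 and SAG13 fell as well, SEN1 from 72.2 to 2.54 TPM and SAG13 from 21.9 to 0.268 TPM in wild type.

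Jasmonate and ethylene outputs moved in both directions. Of 7 tested, 4 were called lower and 1 higher in wild type, against 27.6% and 42.4% of all genes, and 3 lower and 2 higher in prp43a, against 27.0% and 43.1%. When single libraries were left out there were 3 to 4 lower and 0 to 2 higher in wild type, where 0 were higher without wild-type heat replicate 1 and 2 without wild-type control replicate 1. In prp43a there were 1 to 3 lower and 0 to 2 higher, with 1 lower without prp43a control replicate 1, prp43a heat replicate 1 or prp43a heat replicate 2, and 0 higher without prp43a heat replicate 1. PDF1.2A, a defensin, had 13.6 and 13.3 TPM in wild-type controls, 1.26 and 0 TPM after heat, 2.32 and 12.4 TPM in prp43a controls and 0 and 1.38 TPM in heated prp43a. In each of the last 3 of these groups the library with more PDF1.2A was also the one with more PR1 and PR2. PR3, a chitinase, fell from 16.6 to 4.80 TPM in wild type (log2 fold change -1.69, limma adjusted p = 0.0049). MYC2, a transcription factor of jasmonate signalling, was listed at 0 in both wild-type controls and had 14.3 and 2.00 TPM after heat.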
